A study of Mus musculus with 15 samples.

Results

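The 10 carboxylesterase genes described here are Ces1b, Ces1c, Ces1d, Ces1e, Ces1f, Ces1g, Ces2a, Ces2e, Ces3a and Ces3b, chosen by name out of 55573 genes in the liver RNA-seq table. All 10 were among the 17655 genes that passed the filter on low counts. Livers came from 15 mice aged 8 weeks of the strain B6N(Cg)-Esr1tm4.2Ksk/J, in which Esr1, the gene of estrogen receptor alpha, carries an exon deletion in every tissue. The 4 groups were wild type (WT) females (n = 3), WT males (n = 3), knockout (ESR1KO) females (n = 5) and ESR1KO males (n = 4), with WT mice being littermates of the knockouts. Because the deletion is not limited to the liver, ESR1KO mice of both sexes are also described as infertile with raised testosterone, so loss of the receptor in hepatocytes and a changed hormone status cannot be told apart. Whole liver was used, so fewer cells of a type and less RNA per cell cannot be told apart either.

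Carboxylesterases are serine hydrolases that cleave ester, amide and thioester bonds, and the liver is one of their main sites of expression. Most are held in the lumen of the endoplasmic reticulum, where they cleave ester drugs and, for several of them, stored triacylglycerol and other neutral lipids, whose fatty acids can then be used for very-low-density lipoprotein (VLDL). Mice carry many more copies than humans do, arranged in tandem clusters of closely related genes.

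All 10 members lie on chromosome 8 of GRCm38, in a pair of clusters. The Ces1 cluster ran from 93020214 to 93535830 (515.6 kb) and held 9 carboxylesterase genes, all on the minus strand, of which 6 are members. The second cluster, with the Ces2, Ces3 and Ces4 genes, ran from 104734003 to 105150109 (416.1 kb) and held 11 carboxylesterase genes, all on the plus strand, of which 4 are members. No other protein-coding gene lay inside either cluster. The direction of the sex difference in WT livers changed between neighbours of the Ces1 cluster, whereas the 4 members of the second cluster had log2 fold changes below 0, of which Ces2a and Ces3a passed the test and Ces2e and Ces3b did not. The map of the clusters shows these values.

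**Figure D1:**
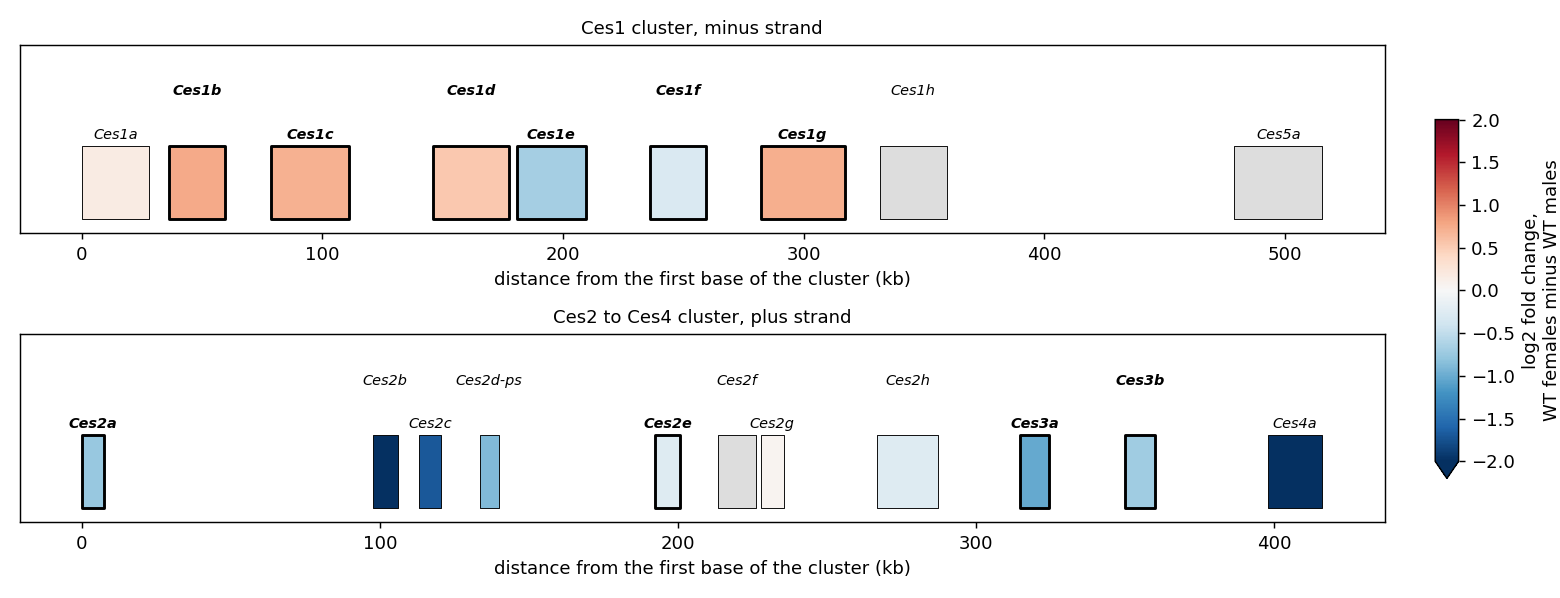
Map of the pair of carboxylesterase clusters, to scale, with distance in kb from the first base of each cluster on the x axis and each box a gene coloured by its log2 fold change of WT females minus WT males (red, higher in females; blue, lower; grey, not tested; the scale ends at 2 in either direction). Members have thick outlines and bold names. Ces1d (0.54) and its neighbour Ces1e (-0.69) differed in direction, and Ces2a, Ces2e, Ces3a and Ces3b were all below 0.

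Sequence similarity within the clusters bears on which gene a read was counted for. The longest transcripts of Ces3a and Ces3b were identical at 95.4% of 2046 aligned bases and those of Ces1b and Ces1c at 91.4% of 1822, while Ces2a and Ces2e reached 80.7% and Ces1d and Ces1g 78.5%. Of all stretches of 75 bases in the Ces3a transcript, 18.3% also occurred in Ces3b, and 15.4% of those in Ces3b occurred in Ces3a. The share was 14.8% for Ces2a, with the gene Gm7208 as the partner, 6.73% for Ces1c and 4.50% for Ces1b, and at most 1.05% for the other members. How reads matching more than 1 gene were counted is not given in the sources used here, so the split between Ces3a and Ces3b, and to a lesser degree the values of Ces2a, Ces1b and Ces1c, are uncertain. Gm45909 overlaps Ces1d on the same strand, and Gm45724 overlaps Ces3a on the opposite strand. Whether counting used strand is not given.

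The bases before the transcription start are shown for 5 members, so that genes of both clusters, with and without a call, can be read side by side. RefSeq promoter windows (GRCm38.p6, 250 bases before to 50 bases after the start) matched 7 of the 10 members. Ces1d, Ces1f and Ces3a were not matched. Each line gives the 100 bases before the start, 5′ to 3′ on the gene's strand, with capitals on a CCAAT box (CCAAT, or ATTGG on the opposite strand) and on a TATA box (TATAAA). Ces1c lies at chr8:93131284-93131383 (minus strand), Ces1e at chr8:93229620-93229719 (minus), Ces2a at chr8:104733903-104734002 (plus), Ces2e at chr8:104926160-104926259 (plus) and Ces3b at chr8:105083655-105083754 (plus).
Ces1c: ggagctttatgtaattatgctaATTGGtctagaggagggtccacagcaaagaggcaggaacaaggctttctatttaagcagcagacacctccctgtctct
Ces1e: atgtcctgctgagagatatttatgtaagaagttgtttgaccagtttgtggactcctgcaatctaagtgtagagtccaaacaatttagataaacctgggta
Ces2a: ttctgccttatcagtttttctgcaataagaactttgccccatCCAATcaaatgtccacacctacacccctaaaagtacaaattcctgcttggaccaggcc
Ces2e: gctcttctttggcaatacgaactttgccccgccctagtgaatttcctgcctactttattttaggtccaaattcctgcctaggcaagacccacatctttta
Ces3b: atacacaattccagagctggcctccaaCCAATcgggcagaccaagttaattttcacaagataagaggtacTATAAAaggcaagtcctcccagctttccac

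A CCAAT box on either strand occurred in the windows of 5 of the 7 members (Ces1b, Ces1c, Ces1g, Ces2a and Ces3b) and in 37.4% of 32851 promoter windows of the same length. This set, called all windows here, left out a single chromosome, not the one that holds the members. In the bases shown, the first base of the CCAAT box lay at -78 in Ces1c, -58 in Ces2a and -73 in Ces3b, counting the base before the start as -1. The window of Ces2a held a further match at -231, on the opposite strand. Ces1e and Ces2e had none. The TATA box, searched on the gene's own strand, was present in Ces3b alone, at -30, and in 8.32% of all windows. None of the 7 members held the full estrogen response element (GGTCA, any 3 bases, TGACC, in 0.07% of all windows) or the STAT5 core TTCNNNGAA (8.30%), each searched on both strands. The shorter GGTCA, which is part of the full element, occurred on either strand in Ces1e, Ces1g and Ces2a and in 40.5% of all windows. The windows of Ces1b, for which RefSeq gives 2 starts, were identical to that of Ces1c at 92.7% and 93.9% of aligned bases. A match or its lack describes the letters of these windows only.

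Libraries held 27799061 to 78624766 counts, and the count of a member in a library ran from 1599 (Ces1b in ESR1KO male 1) to 216507 (Ces1c in WT female 1). Esr1, the targeted gene, was at 74.7 to 88.2 CPM (counts scaled to the size of the library) in WT and 9.67 to 19.7 CPM in ESR1KO females, and at 25.0 to 52.0 CPM in WT and 8.22 to 16.1 CPM in ESR1KO males, so that no ESR1KO mouse reached a WT mouse of either sex. ESR1KO females 1 and 2 stood apart from the other 3 of their group: the 10 most abundant genes took 24.67% and 22.15% of their counts, against 15.97% to 20.29% in the other 13 mice, and the members took 0.531% and 0.630%, against 0.755% to 0.931%. For the members, differences of ESR1KO from WT females are given with and without this pair. Genes outside the family are given with all mice only. The pair stands apart partly by the members' own share of counts. Calls that appear only without it are therefore not independent of that choice. Summed hepatocyte markers (5 of 5 detected) were at 73980 to 75970 CPM in WT males and 99840 to 107500 in WT females. The sum was 86100 to 94920 CPM in ESR1KO males and 81360 to 105300 in ESR1KO females. The higher sum of WT females came through Alb (log2 fold change 0.66 against WT males, edgeR adjusted p = 0.038). Apoa1 (-0.64), Ttr (-0.35), Serpina1a (-0.25) and Cps1 (-0.08) went the other way, none of them called. The part of these markers in the results below was not tested. Carboxylesterases are also expressed in fat, intestine and kidney. The adipocyte list (3 genes, Lep at 0 in all mice) summed to at most 0.117 CPM, the enterocyte list (3 genes) to 33.3 to 104 CPM with Alpi at 0 in all mice, and the kidney list (3 genes) to 0.412 to 5.41 CPM with Slc34a1 at 0 in all groups but ESR1KO males. The enterocyte sum was higher in ESR1KO mice (52.9 to 104 CPM) than in WT males (40.9 to 47.9), through Fabp2. WT females, at 33.3 to 63.9 CPM, overlapped both. Fabp2 itself was called higher in ESR1KO than in WT females (log2 fold change 0.83, edgeR adjusted p = 0.0336). It was also called in ESR1KO females against WT males (0.93, adjusted p = 0.029). In ESR1KO against WT males it was not called (0.87, adjusted p = 0.0692). The kidney sum was 3.11 to 5.41 CPM in WT males and 0.412 to 2.05 in WT females, through Lrp2. Of the 4 cholangiocyte markers, whose sum was 3.12 to 5.50 CPM over all mice, Epcam (1.08) and Sox9 (-1.03) differed between WT females and WT males, and Krt19 (1.22) and Epcam (0.95) were higher in ESR1KO than in WT males. The pancreas gene Cela1 was lower in ESR1KO than in WT males (-0.99), with Pnlip at 0 in all mice, and the Kupffer cell gene Vsig4 was higher in ESR1KO females than in ESR1KO males (0.61). The part of these markers in the results was not tested.

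The sex difference was examined first, in WT livers. Ces1b, Ces1d and Ces1g were higher in females, and Ces1e, Ces2a and Ces3a were lower in females, by 1.45 to 2.03 times. Thus 6 of the 10 members passed an adjusted p of 0.05 (edgeR quasi-likelihood test, Benjamini-Hochberg over 17655 genes), 3 in each direction, against 4.87% of all genes tested (2.67% higher and 2.2% lower in females). The size of the log2 fold change had a median of 0.71 over the members and 0.19 over all genes tested. The count was 7 without ESR1KO females 1 and 2, which share the fit, with Ces1c added, and 8.93% of all genes were then called. For 9 of the 10 members the 3 females and the 3 males did not overlap, which held for 30.1% of all genes, Ces2e being the exception. None of the members reached a log2 fold change of 1.5 in this or any other comparison. Together with the adjusted p, 1.81% of all genes did here, 0.142% between the ESR1KO sexes, 1.2% for ESR1KO against WT females, 0.578% for ESR1KO against WT males, 0.816% for ESR1KO females against WT males and 1.09% in the interaction. The count of 6 rested on having 3 mice in each WT group: it was 1, 2 and 1 without WT female 1, 2 or 3, and 0, 0 and 4 without WT male 1, 2 or 3, while over all genes the calls went from 860 to between 532 and 785 (3.01% to 4.45%).

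In ESR1KO livers the same comparison called none of the members. The adjusted p of Ces1e, the smallest, was 0.142 (log2 fold change -0.49 ± 0.15, SE), and 0.272% of all genes were called. At an unadjusted p under 0.05 there were 2 members, Ces1e and Ces2e, against 17.5% of all genes, and the DESeq2 Wald test called 1, Ces1e (1.3% of all genes). The count was also 0 without ESR1KO females 1 and 2 (0.176%). In no member were the 5 ESR1KO females separate from the 4 ESR1KO males, against 5.22% of all genes. The median size of the difference was 0.18 over the members and 0.18 over all genes. The intervals were not narrow: the SE ran from 0.10 for Ces1d to 0.21 for Ces3b.

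The knockout was then compared with WT within each sex. In females, Ces1e and Ces1f rose in ESR1KO livers and Ces1b and Ces1c fell, which made 4 of 10 members against 5.71% of all genes (3.14% higher and 2.57% lower). Females of both genotypes did not overlap for Ces1c, Ces1e, Ces1f, Ces1g and Ces2a, 5 of 10 against 15.6% of all genes. Without ESR1KO females 1 and 2 the 4 calls held and the count was 7, with Ces2a, Ces2e and Ces3a added, all higher in ESR1KO females, against 4.39% of all genes. The count was 2, 1 and 1 without WT female 1, 2 or 3 (2.31% to 2.62% of all genes), and 2 without WT male 2, ESR1KO female 2 or ESR1KO male 1 (3.36% to 4.76%). It was 1, Ces1e, when only the female libraries were fitted (2.58%). In males, Ces1d and Ces1e rose in ESR1KO livers and no member fell, 2 of 10 against 1.42% of all genes (0.833% higher). ESR1KO and WT males did not overlap for 5 members, Ces1d, Ces1e, Ces1g, Ces2e and Ces3a, against 15.9% of all genes. The count in males was 1 (Ces1d) without any 1 of the WT males or of ESR1KO males 1, 3 and 4 (0.555% to 1.06% of all genes), and it was 3 without ESR1KO females 1 and 2, with Ces2e added (2.7%).

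The difference between the sexes in the effect of the knockout was tested as an interaction. By edgeR 0 of the 10 members passed, against 1.94% of all genes. At an unadjusted p under 0.05 there were 7, all but Ces1e, Ces1f and Ces2e, against 14.3% of all genes, and DESeq2 called 2, Ces1d and Ces1g (1.75% of all genes). The smallest adjusted p were 0.0942 for Ces1d (-0.57 ± 0.16) and 0.117 for Ces1g (-0.86 ± 0.25), both with a lower response in females. Without ESR1KO females 1 and 2 there were 2 calls, Ces1g (-0.61 ± 0.15, adjusted p = 0.0494) and Ces3a (1.04 ± 0.18, adjusted p = 0.00641), against 2.37% of all genes, and without ESR1KO female 4 there was 1 (2.03%). Knocked-out females were also set beside WT males. There 1 member passed, Ces1d (2.61% of all genes, 1.38% higher), and it was also the only member whose groups did not overlap (9.91% of all genes). Without ESR1KO females 1 and 2 there were 2, Ces1d and Ces1g (0.52 ± 0.11, adjusted p = 0.0251), against 2.31% of all genes, and there were also 2 without ESR1KO female 5 (4.09%). These comparisons share WT or ESR1KO mice with each other, so their values for a member are not independent.

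**Figure D2:**
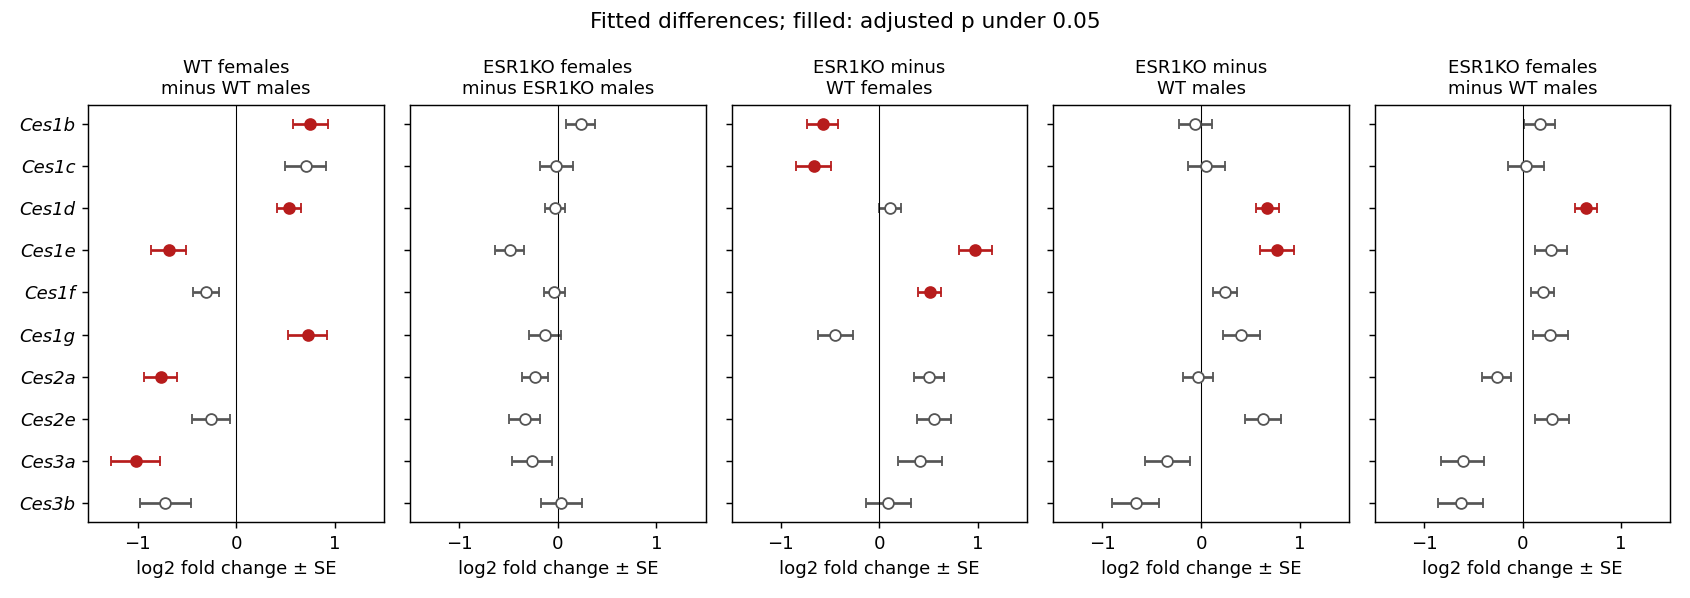
Fitted log2 fold change (x axis, points) with SE (bars) of each member in 5 comparisons, with members in chromosome order on the y axis and filled red points for an adjusted p under 0.05. The WT sex difference has 6 filled points on both sides of 0, the ESR1KO sex difference has none, and Ces1d alone is filled in the comparison of ESR1KO females with WT males.

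Ces1c encodes the secreted esterase of mouse plasma, and it had the most mRNA per length of all members in WT females. Its level was 3724, 3645 and 3921 CPM in the WT females and 2366, 2446 and 2122 in the WT males. The ESR1KO females were at 1607, 1795, 2524, 3067 and 2869 CPM and the ESR1KO males at 2321, 2362, 2301 and 2622. Every WT female thus lay above all 12 other mice, and the ESR1KO females covered the range of both male groups. Ces1c fell in ESR1KO females (log2 fold change -0.67 ± 0.18, adjusted p = 0.0387). The exact permutation p was 0.0357, two-sided with the smaller tail doubled, the smallest that 5 against 3 mice then allow. Without ESR1KO females 1 and 2 the difference was -0.42 ± 0.10 (adjusted p = 0.0326). The call with all mice was lost without each of the WT females (adjusted p = 0.106, 0.0998 and 0.147) and without ESR1KO female 2 (0.0847). It was also lost without WT male 2 (0.0519) and without ESR1KO males 1, 3 or 4 (0.0507 to 0.06). The sex difference in WT livers (0.70 ± 0.20) had an adjusted p of 0.0598, which was 0.0148 by DESeq2, 0.0448 with total counts only, 0.00708 with only the WT groups fitted and 0.000541 without ESR1KO females 1 and 2. In males the difference of ESR1KO from WT was 0.06 ± 0.19.

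Ces1b, the nearest relative of Ces1c, was the least abundant member per length in the WT males. It stood at 86.5, 107 and 113 CPM in WT females and at 61.9, 59.8 and 60.7 CPM in WT males. In the ESR1KO females it was at 86.9, 51.4, 66.3, 54.7 and 83.6 CPM, so that 1 of them reached the lowest WT female, and in ESR1KO males it was at 54.4 to 66.7 CPM. Ces1b was higher in WT females than in WT males (0.75 ± 0.18, adjusted p = 0.0177). It fell in ESR1KO females (-0.58 ± 0.15, adjusted p = 0.0385), where the groups overlapped and the exact permutation p was 0.0714. Without ESR1KO females 1 and 2 the difference was also -0.58 (adjusted p = 0.0299). The sex call was lost without WT females 2 or 3 and without each WT male (adjusted p 0.0537 to 0.0863). The knockout call was lost without WT female 2 (0.133) or 3 (0.179), without ESR1KO females 2, 3 or 4 (0.0537 to 0.0792), WT male 2 (0.0515) and ESR1KO male 1 (0.0506). ESR1KO female 1, whose Ces1c was the lowest, had the highest Ces1b of its group.

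Ces1g, a lipid-hydrolysing enzyme of hepatocytes, had levels of 259, 247 and 321 CPM in WT females and 183, 159 and 158 in WT males. The ESR1KO females were at 135, 158, 246, 238 and 235 CPM, and the ESR1KO males at 242, 193, 230 and 222. The first 2 ESR1KO females were below the WT males, and the other 3 were just below the lowest WT female. Ces1g was higher in WT females than in WT males (0.73 ± 0.20, adjusted p = 0.0437). The differences of ESR1KO from WT were -0.45 ± 0.17 in females (adjusted p = 0.139; -0.20 ± 0.11, adjusted p = 0.323, without ESR1KO females 1 and 2) and 0.41 ± 0.19 in males (adjusted p = 0.391), opposite in sign and neither past the threshold. The sex call was lost without any 1 of the 6 WT mice (0.0643 to 0.194) and without ESR1KO males 1, 3 or 4 (0.0569 to 0.0743).

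**Figure D3:**
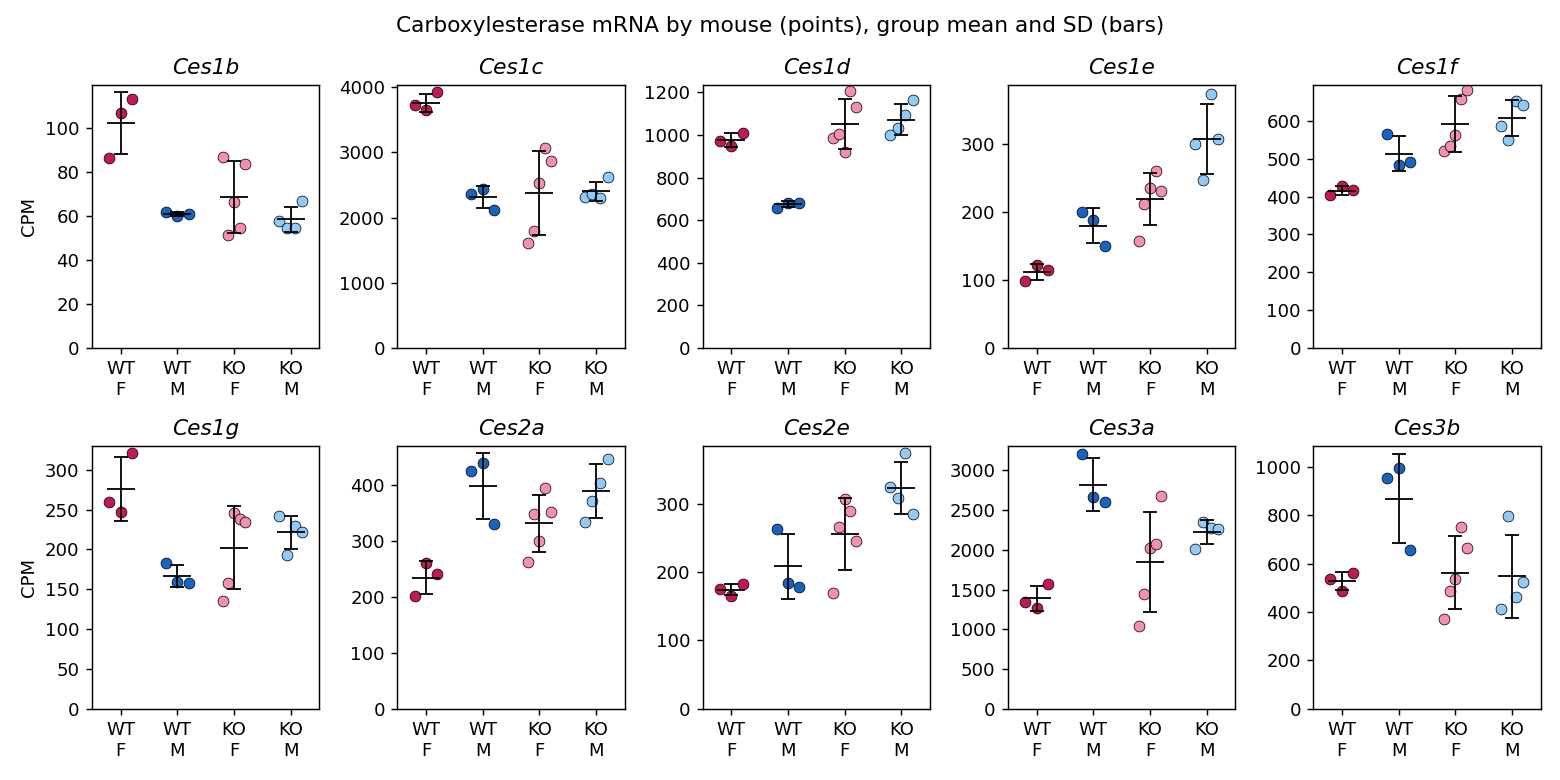
Level of each member in CPM (y axis, from 0, a scale of its own in each panel) in each mouse (points) of the 4 groups (x axis; F, females; M, males; KO, ESR1KO), with the group mean and SD (bars). WT males are the low group for Ces1d (657 to 682 CPM), WT females are the high group for Ces1c (3645 to 3921) and the low group for Ces1e (98.6 to 122), and ESR1KO females have the widest spread for Ces1c and Ces3a.

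Ces1d, also known as triacylglycerol hydrolase, mobilises stored triacylglycerol for VLDL, and it was the member in which WT males stood alone. Its level was 657, 682 and 682 CPM in the WT males. In the other groups it was 971, 948 and 1010 CPM in WT females, 986, 1007, 920, 1208 and 1134 in ESR1KO females, and 999, 1033, 1093 and 1166 in ESR1KO males. The lowest of these 12 mice, at 920 CPM, was above the highest WT male. Ces1d was higher in WT females than in WT males (0.54 ± 0.12, adjusted p = 0.0163), it rose in ESR1KO males (0.67 ± 0.12, adjusted p = 0.00678), and it was higher in ESR1KO females than in WT males (0.64 ± 0.11, adjusted p = 0.00427). In females it stood 0.11 ± 0.11 from WT (adjusted p = 0.606). Without ESR1KO females 1 and 2 these last differences were 0.69 ± 0.10 (adjusted p = 0.00279) against WT males and 0.15 ± 0.10 (adjusted p = 0.425) against WT females. The rise in males passed in all 15 fits that left out 1 mouse (adjusted p up to 0.0424), as did the difference of ESR1KO females from WT males (up to 0.0352), although the latter was at 0.0792 when only those 2 groups were fitted. The WT sex call was lost without WT females 1 or 3 or WT males 1 or 2 (0.0511 to 0.0762), and was 0.121 with no filter on low counts.

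Ces1e encodes egasyn, which retains beta-glucuronidase in the endoplasmic reticulum, and it was the member that rose in ESR1KO livers of both sexes. The WT females were at 98.6, 122 and 116 CPM and the WT males at 201, 189 and 151. The ESR1KO females were at 157, 213, 235, 260 and 232 CPM and the ESR1KO males at 300, 248, 374 and 308. Within each sex all ESR1KO mice were above all WT mice, and ESR1KO females overlapped WT males. In females Ces1e rose by 0.97 ± 0.17 on the log2 scale (adjusted p = 0.0022; exact permutation p = 0.0357), the largest difference among the members in that comparison, and the call held in all 15 fits that left out 1 mouse (adjusted p up to 0.0222). The rise was 1.12 ± 0.14 (adjusted p = 0.000525) without ESR1KO females 1 and 2. In males it rose by 0.77 ± 0.17 (adjusted p = 0.0302), a call lost without WT males 1, 2 or 3 (0.0609, 0.0925 and 0.188) or ESR1KO males 1, 3 or 4 (0.0832, 0.102 and 0.0669). Both rises are relative to WT levels that themselves differed, being lower in females (-0.69 ± 0.18, adjusted p = 0.0349). That sex call was lost without any 1 of the WT females (0.0663 to 0.142), WT males 1 or 2 (0.153 and 0.112) or ESR1KO male 1 (0.0521), and with every mouse kept it was at 0.0553 when libraries were scaled by total counts only. The interaction was 0.20 ± 0.23 (adjusted p = 0.717).

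Ces1f, a second triacylglycerol hydrolase of the Ces1 cluster, moved less. The WT females were at 404, 428 and 417 CPM and the ESR1KO females at 522, 535, 564, 658 and 682. The WT males were at 567, 484 and 491 CPM and the ESR1KO males at 588, 549, 653 and 642. WT females were below all other mice, and the other 3 groups overlapped one another. Ces1f rose in ESR1KO females (0.51 ± 0.12, adjusted p = 0.0196; exact permutation p = 0.0357), and by 0.61 ± 0.10 (adjusted p = 0.00359) without ESR1KO females 1 and 2. The call was lost without WT female 1, 2 or 3 (0.0869, 0.0676 and 0.0851) and was at 0.0989 with the female libraries alone. With replicate number added to the fit, its adjusted p was 0.062. The difference of WT females from WT males was -0.30 ± 0.13 (adjusted p = 0.231), and that of ESR1KO from WT males 0.24 ± 0.12 (adjusted p = 0.461).

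The Ces2 enzymes hydrolyse drugs with small acyl groups and, in liver, acylglycerols. Ces2a was at 201, 260 and 241 CPM in WT females and 424, 439 and 330 CPM in WT males. Its level in ESR1KO females was 262, 348, 299, 395 and 351 CPM, all above the WT females and overlapping the male groups, and in ESR1KO males it was 334, 370, 403 and 446 CPM. Ces2a was lower in WT females than in WT males (-0.77 ± 0.17, adjusted p = 0.0106), which was lost without WT female 1 (0.0633) or WT males 1 or 2 (0.0517 and 0.0555). ESR1KO females differed from WT females by 0.50 ± 0.15 (adjusted p = 0.0607; 0.58 ± 0.15, adjusted p = 0.0399, without ESR1KO females 1 and 2), and ESR1KO males from WT males by -0.03 ± 0.15. Ces2e passed in no comparison by edgeR with all mice and the filter on low counts. It ranged over 165 to 182 CPM in WT and 170 to 307 CPM in ESR1KO females, and over 178 to 264 CPM in WT and 286 to 375 CPM in ESR1KO males, so that the ESR1KO males were above all WT mice. Its differences of ESR1KO from WT were 0.55 ± 0.17 in females (adjusted p = 0.0734) and 0.63 ± 0.18 in males (adjusted p = 0.111), which became 0.0169 (0.69 ± 0.15) and 0.0273 (0.63 ± 0.14) without ESR1KO females 1 and 2 and 0.0288 and 0.0369 by DESeq2. The difference in females also passed with no filter on low counts, and both passed without ESR1KO female 1.

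Ces3a had the largest sex difference of the members in WT livers. It was at 1345, 1264 and 1566 CPM in WT females and 3204, 2663 and 2598 CPM in WT males. ESR1KO males, at 2009, 2347, 2275 and 2266 CPM, lay between these groups without touching either. ESR1KO females spread over 1039, 1442, 2019, 2078 and 2677 CPM, from below the lowest WT female to within the WT males. Ces3a was lower in WT females by 1.02 ± 0.25 on the log2 scale (adjusted p = 0.0224), 2.03 times in fold. The call was lost without WT female 1, 2 or 3 (0.0827, 0.1 and 0.0509) or WT males 1 or 2 (0.105 and 0.0509). With all mice the difference of ESR1KO from WT females was 0.41 ± 0.22 (adjusted p = 0.289), and without ESR1KO females 1 and 2 it was 0.70 ± 0.13 (adjusted p = 0.00868). ESR1KO females 1 and 2 had the lowest Ces3a of their group, so leaving them out raises this difference by itself. ESR1KO males differed from WT males by -0.34 ± 0.23 (adjusted p = 0.62).

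Ces3b, nearly identical to Ces3a over its transcript, passed in no comparison when all 4 groups were fitted together. Its ranges were 488 to 559 CPM in WT and 370 to 752 CPM in ESR1KO females, and 656 to 996 CPM in WT and 411 to 797 CPM in ESR1KO males. WT males were above WT females, and both ESR1KO groups covered the WT females and reached into the WT males. The log2 fold changes were -0.72 ± 0.26 for WT females against WT males (adjusted p = 0.145, and 0.0325 with only these 2 groups fitted), -0.66 ± 0.24 for ESR1KO against WT males (adjusted p = 0.229) and 0.09 ± 0.23 for ESR1KO against WT females (adjusted p = 0.851; 0.30 ± 0.22, adjusted p = 0.475, without ESR1KO females 1 and 2). The exact permutation test doubled the smaller tail. In that form it cannot go below 0.1 with 3 against 3 mice, or below 0.0571 with 4 against 3. Single members therefore cannot pass 0.05 by that form of the test in the WT sex or the male comparison.

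The members were also compared per length, as RPKM (CPM per kilobase of the union of exons), and summed. The sum was 3277 ± 169 RPKM in WT females (SD, n = 3), 3277 ± 288 in WT males (n = 3), 3279 ± 163 in ESR1KO males (n = 4) and 3024 ± 674 in ESR1KO females (n = 5). The group means of WT females, WT males and ESR1KO males thus differed by less than the spread between mice, while the make-up of the sum differed. ESR1KO females were at 2153, 2535, 3109, 3636 and 3686 RPKM, with the first 2 below all other mice. Ces1c gave 49.5% ± 0.723 of the sum in WT and 33.5% ± 2.29 in ESR1KO females, and 30.4% ± 1.46 in WT and 31.5% ± 1.42 in ESR1KO males. Its lowest share in a WT female (48.6%) was above its highest in any other group (36.3%), ESR1KO females 1 and 2 included. Ces3a took 16.1% ± 0.975 in WT and 22.8% ± 3.51 in ESR1KO females, and 32.8% ± 2.07 in WT and 25.8% ± 0.936 in ESR1KO males. On this share the WT females were the lowest and the WT males the highest, with both ESR1KO groups between them and overlapping each other.

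**Figure D4:**
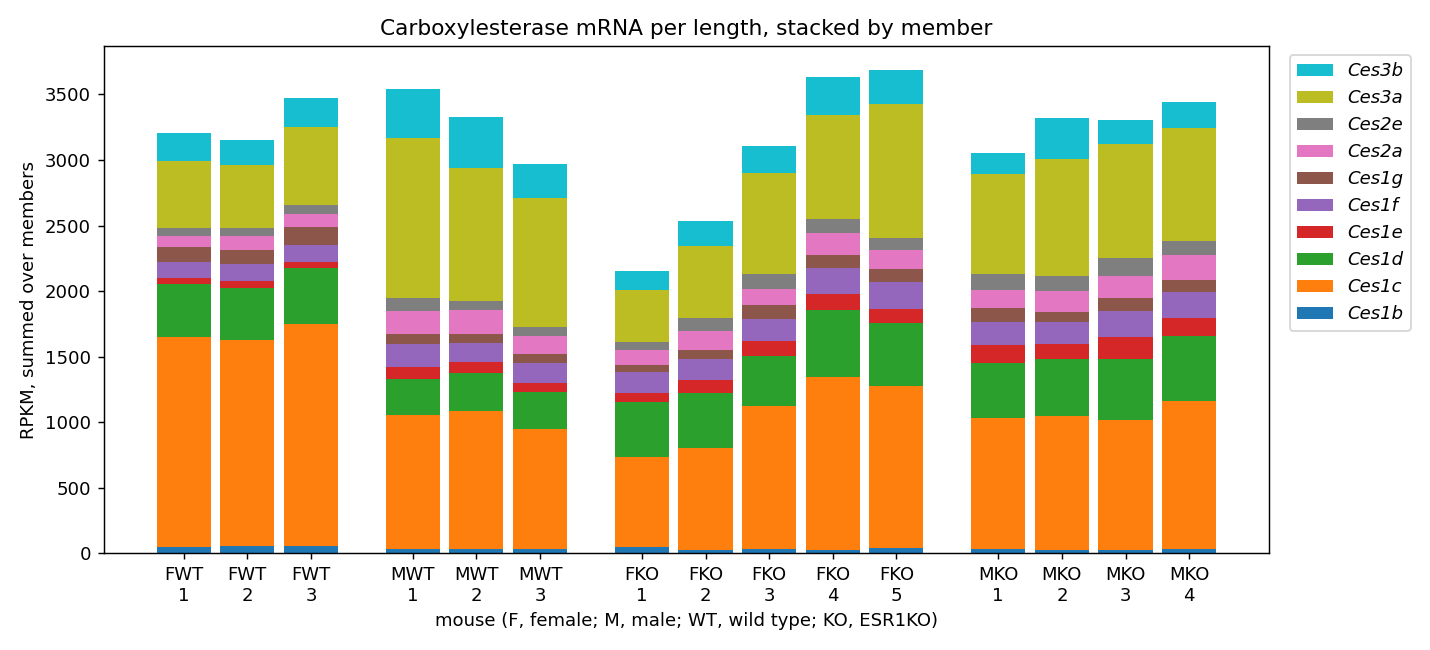
RPKM of the 10 members stacked for each mouse (x axis, groups side by side) on a y axis of summed RPKM from 0. The stacks have like heights except for ESR1KO females 1 and 2 (2153 and 2535 RPKM), while Ces1c takes the largest part in WT females (48.6% to 50.01%) and Ces3a its largest in WT males (30.5% to 34.5%).

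Ces1d made up 8.73% ± 0.932 of the sum in WT males and 12.6% ± 0.265, 15.1% ± 2.88 and 13.8% ± 0.485 in WT females, ESR1KO females and ESR1KO males. Ces1e, a minor member, was at 1.56% ± 0.181 in WT females and 3.35% ± 0.348 in ESR1KO females, and at 2.50% ± 0.156 in WT males and 4.29% ± 0.737 in ESR1KO males. Per length, the order within a group also turned. In WT females Ces1c (1620 ± 61.2 RPKM) was followed by Ces3a (530 ± 59.5) and Ces1d (412 ± 13.2). In WT males Ces3a (1074 ± 127) came before Ces1c (995 ± 72.7), and Ces3b (339 ± 72.1) before Ces1d (285 ± 6.03), each pair closer than the larger of its SDs. These shares are descriptions and carry no test.

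Members varied together across the 15 mice to very different degrees, and these correlations of log2 CPM are descriptions over mice that share group and scaling. The closest pairs were Ces1e with Ces2e and Ces1e with Ces1f (both r = 0.91), followed by Ces1c with Ces1g (r = 0.85). After removal of the group means the last pair was at 0.85 and Ces1c with Ces3a was at 0.88, against -0.07 before. Ces1b ran opposite to Ces2a (r = -0.73), but was at -0.16 within groups. Outside the family, the gene most alike by Pearson r over the 15 mice was Ephb4 for Ces1c (0.96), Rdh16 for Ces1d (0.93), Ftl1-ps1 for Ces1e (0.96), Ldhd for Ces3a (0.96) and Lancl1 for Ces3b (0.96). For Ces1b it was Rcsd1 (0.93), for Ces1f Adora1 (0.92), for Ces2a Pdhx (0.92) and for Ces2e Pebp1 (0.95).

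The other carboxylesterases of the clusters were a list of 10 genes, of which 7 were tested. In WT livers 3 of the 7 passed, all lower in females, against 4.87% of all genes tested (2.2% lower in females). Ces2b, with 31 counts over the 3 WT females and 519 over the 3 WT males, differed by -4.08 ± 0.82 (adjusted p = 0.00581). The level of Ces4a was 7.90 ± 1.13 CPM (SD) in the 3 WT males and 1.47 ± 0.465 in the 3 WT females (-2.42 ± 0.39, adjusted p = 0.000807), and that of Ces2c 62.4 ± 25.4 and 19.2 ± 9.17 CPM (-1.70 ± 0.38, adjusted p = 0.0124). Each of these lies in the second cluster, where Ces2g (0.05 ± 0.18, adjusted p = 0.923) and Ces2h (-0.26 ± 0.33, adjusted p = 0.745) did not pass. In ESR1KO males Ces4a fell to 2.23 ± 0.862 CPM (n = 4; -1.83 ± 0.34, adjusted p = 0.011) and it was the 1 gene of the list that passed in males. ESR1KO females were below WT males for Ces4a (-1.98 ± 0.32, adjusted p = 0.00218) and Ces2c (-1.31 ± 0.32, adjusted p = 0.0366). Over all genes, 1.42% were called between ESR1KO and WT males and 2.61% between ESR1KO females and WT males. Of the 7 genes, 0 passed between ESR1KO and WT females (5.71% of all genes) and 0 between the ESR1KO sexes (0.272%). Ces1h, Ces2f and Ces5a had at most 3 counts in any library.

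Among 18 other ester and neutral lipid hydrolases, 3 passed in WT livers, all higher in females: Bche, butyrylcholinesterase (0.91 ± 0.16, adjusted p = 0.00252), Lipc, hepatic lipase (0.61 ± 0.12, adjusted p = 0.00657) and Pnpla3 (3.62 ± 0.998, adjusted p = 0.0469). Over all genes tested, 4.87% passed in that comparison, 2.67% higher in females. Pnpla3 was at 2.61 to 21.0 CPM in the WT females and 0.682 to 1.002 in the WT males, and it rose in ESR1KO males (4.11 ± 0.98, adjusted p = 0.0486). In females Aadac, another lipase of the endoplasmic reticulum, rose in ESR1KO livers (0.61 ± 0.17, adjusted p = 0.0492), as did Esd (0.39 ± 0.11, adjusted p = 0.0499). Against WT males, ESR1KO females differed by 3.73 ± 0.96 for Pnpla3 (adjusted p = 0.0485), although ESR1KO female 5 (0.875 CPM) lay within the WT males, and by 0.82 ± 0.15 for Bche (adjusted p = 0.00614). Of the lipid droplet and VLDL assembly list 15 of 16 genes were tested. In WT livers Tm6sf2, needed for lipidation of VLDL, was higher in females (1.16 ± 0.18, adjusted p = 0.000726), while Fitm1 (-2.09 ± 0.33, adjusted p = 0.000711) and Abhd5 (-0.44 ± 0.11, adjusted p = 0.0341) were lower. Tm6sf2 fell in ESR1KO females (-0.69 ± 0.16, adjusted p = 0.0196) and rose in ESR1KO males (0.75 ± 0.17, adjusted p = 0.0421). Fitm1, which promotes lipid droplet formation, rose in ESR1KO females (2.60 ± 0.32, adjusted p = 7.5e-05), and so did Hilpda (0.76 ± 0.18, adjusted p = 0.0208).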

How the data were processed

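Total RNA of 15 livers was depleted of ribosomal RNA and sequenced as paired ends. Per the labels and the study's methods, the authors trimmed reads with Trimmomatic 0.36, aligned them with STAR to GRCm38 and counted reads per gene with HTSeq 0.6.0 (version per the submitters' processing notes). The annotation release and strand setting are not given in the sources used here. A top-up run was made for libraries of low depth, which ones not being stated. The deposited values are raw counts for 55573 genes.

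Counts of 17655 genes that passed filterByExpr were fitted with edgeR 4.0.16 (R 4.3.3; TMM scaling, quasi-likelihood F test, 1 mean for each of the 4 groups, all 15 libraries in 1 fit), with Benjamini-Hochberg adjustment over all genes and a threshold of 0.05. The SE was the size of the log2 fold change over the square root of F. CPM used TMM library sizes, log2 CPM a prior count of 2, and RPKM the union of exons in GENCODE M21. Exact two-sided permutation tests used mean log2 CPM, with the smaller tail doubled. The pipeline was tested on simulated counts. Labels do not say that mice were independent beyond being separate samples. Replicates of 1 group all differed by more than counting noise. The members, lists and markers were chosen with earlier results of these data known. All members were named, with values by mouse for those past the threshold anywhere, and up to 5 genes per list and comparison. Alternatives were DESeq2 1.42.0, other scalings and filters, a replicate block, fits of only the compared groups, a log2 fold change of 1.5, transcript length and each mouse left out. Leaving out ESR1KO females 1 and 2 together was added after the data were seen. Analyses used Python 3.11.15. For 1 of the members the most-alike gene is not reported here.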

Additional observations from a re-analysis of the deposited data

Results flagged for a closer look

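None of the members had a mouse standing apart by Dixon's test within the 2 groups large enough to test, and none had an interaction past the threshold. Among genes of the related lists, the effect of the knockout differed between the sexes for Ces4a (interaction 2.27 ± 0.50 on the log2 scale, adjusted p = 0.0231), which fell in ESR1KO males from a level that only WT males had, and for Tm6sf2 (-1.44 ± 0.24, adjusted p = 0.00242), which fell in ESR1KO females and rose in ESR1KO males. Within the ESR1KO females, 1 mouse stood apart for each of 3 genes, where the gap to the next mouse is given as a share of the group's range. Ces2b was at 0.318 CPM in ESR1KO female 1 against 1.07 to 1.27 in the other 4 (0.872). Pnpla3 was at 0.875 CPM in ESR1KO female 5 against 10 to 17.5 (0.811). Hilpda was at 1.15 CPM in the same mouse against 1.70 to 1.89 (0.783). In all 46 groups of mice were checked, over the members, Esr1 and the called genes of the lists, and chance flags about 1 in 20.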

How the results depend on the processing

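Over 410 values of the members under alternatives that kept every mouse, 380 kept direction and side of the threshold, 9 lost the call, 14 gained it and 7 turned direction, all uncalled and near 0. With a log2 fold change of 1.5 required as well, counts were 0 in every comparison. DESeq2 called 1 member between the ESR1KO sexes and 2 in the interaction. With only the compared groups fitted, the WT sex difference gave 8 calls (Ces1c and Ces3b added), ESR1KO against WT females 1 and ESR1KO females against WT males 0. Without ESR1KO females 1 and 2, chosen after the data were seen, the counts were 7 (ESR1KO against WT females), 2 (ESR1KO females against WT males) and 2 (interaction), and the ESR1KO sex difference turned for Ces1c (0.23), Ces1d (0.019), Ces1f (0.062), Ces1g (0.11) and Ces3a (0.022), as did the interaction of Ces2e (0.057). With total counts only, the ESR1KO sex difference turned for Ces1c (0.039), Ces1d (0.024) and Ces1f (0.015).

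With 1 mouse left out, calls ranged from 0 to 7 for the WT sex difference, 0 to 0 for the ESR1KO sex difference, 1 to 6 for ESR1KO against WT females, 1 to 3 in males, 1 to 2 for ESR1KO females against WT males and 0 to 1 for the interaction. Of 900 values 815 kept direction and side, 56 lost the call, 8 gained it and 21 turned. For results in which some fit turned direction, the values over all 15 fits lay between -0.13 and 0.094 (Ces1c), -0.085 and 0.0145 (Ces1d), -0.094 and 0.0038 (Ces1f) and -0.091 and 0.27 (Ces3b) for the ESR1KO sex difference, -0.036 and 0.21 for Ces3b in females, -0.0027 and 0.10 (Ces1c) and -0.15 and 0.044 (Ces2a) in males, -0.072 and 0.15 for Ces1c in ESR1KO females against WT males, and -0.28 and 0.037 for the interaction of Ces2e. The cause was not tested.

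Replicate numbers in the labels are shared between groups, and what a number stands for is not given. Same-numbered mice did not deviate together over all genes (19 pairs, r from -0.195 to 0.14). Such correlations cannot decide whether these mice were paired in some way. With a replicate block the count was 1 (Ces1d) for ESR1KO against WT males and 2 (Ces1d, Ces3a) for ESR1KO females against WT males. Under the block Ces3b was at -0.039 for the ESR1KO sex difference and -0.10 for ESR1KO against WT females, and Ces1c at -0.050 for ESR1KO against WT males and -0.18 for ESR1KO females against WT males. The block also lost the WT sex call of Ces1e (adjusted p = 0.0584). It lost the call of Ces1f in ESR1KO against WT females as well (0.40, adjusted p = 0.062). Single genes outside the family are given from the fit with all mice only.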
